A study of Mus musculus with 6 samples.

Results

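Adipokines are hormones and other proteins that fat cells release into the blood or the surrounding tissue. The genes of 9 of them (Adipoq, Cfd, Retn, Lep, Rbp4, Rarres2, Nrg4, Metrnl and Sparc) were taken by symbol from a table of read counts for 40322 distinct symbols, and all 9 were found and tested. RNA sequencing had been carried out on white fat from below the skin (subcutaneous WAT) of 6 mice of the C57BL/6J strain, held at room temperature on regular chow. The 3 controls were flox/flox, that is, they carried Nampt alleles flanked by loxP sites. The 3 ANKO mice combined Nampt flox alleles with an adiponectin-Cre transgene, so that Nampt, which makes the NAD precursor nicotinamide mononucleotide, is deleted in adipocytes. The Cre is driven by the promoter of adiponectin, which is itself among the genes described here, and the labels give the controls as flox/flox without naming Cre. The age of the mice is not given in the sources used here.

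White adipocytes secrete adiponectin and adipsin in large amounts, and leptin in proportion to fat stores. Adiponectin raises insulin sensitivity in liver and muscle, leptin restrains food intake through the hypothalamus, and adipsin (complement factor D) is the protease that starts the alternative complement pathway. Transcription of several of these genes in mature adipocytes depends on the nuclear receptor PPARG and on the C/EBP factors.

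Total counts were 19748962 to 23860596 per library, and values are given as CPM (reads scaled to a common library size) after scaling of library sizes by the trimmed mean of M-values (TMM). Nampt stood at 83.6, 93.0 and 87.0 CPM in the controls and at 48.6, 50.2 and 47.0 CPM in ANKO, so the libraries matched their labels. Adipocyte markers were present in every library: 23 adipocyte genes for proteins that are not secreted summed to 14477 to 21706 CPM in controls and 8338 to 14046 CPM in ANKO. In whole tissue, fewer adipocytes and less RNA per adipocyte cannot be told apart. Skeletal muscle RNA varied widely as well, with 19 muscle markers summing to 3537 to 18940 CPM in controls and 285 to 35845 CPM in ANKO. The 16 mammary epithelial markers summed to 499 to 2656 CPM in controls, lowest in control 3, and to 1275 to 1954 CPM in ANKO.

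Markers of other cells, with genes named after their values were seen, gave few calls, apart from the macrophage and mast cell markers given below. Beside the calls of all these marker lists stand 1.1% of all 19272 tested features called lower and 0.488% called higher. None passed by edgeR among 12 lymphocyte, 10 endothelial, 8 Schwann cell, 5 erythroid and 2 mesothelial markers tested. At an unadjusted p under 0.05 by edgeR, 3, 2, 0, 1 and 1 of these were lower, and 1 Schwann cell marker was higher. However, all 10 endothelial markers had a negative log2 fold change (median -0.17). Of 10 mural markers 1 fell, the adhesion molecule gene Mcam (log2 fold change -1.20, adjusted p = 0.00717). Of 13 mammary epithelial markers tested, 1 was called lower and 0 higher. Of 8 brown adipocyte markers 1 rose, the fatty acid elongase gene Elovl3, from 0.175, 0.403 and 0.206 CPM to 4.79, 9.14 and 2.70 CPM (adjusted p = 0.0134). Ucp1 and Cidea lay above the controls in every ANKO library without passing (adjusted p = 0.395 for each). Other brown adipocyte markers went the other way: 4 of the 8 had a negative log2 fold change, and in 2 ANKO lay below control. At an unadjusted p under 0.05 by edgeR, 3 of the 8 were lower and 1 was higher. No share over all features was computed at this unadjusted threshold, here or below, so such counts have no background beside them. The part of the cell types named here in the adipokine values was not tested.

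The comparison of ANKO with control asks how deletion of Nampt from adipocytes altered the expression of the adipokine genes. Cfd, Retn and Adipoq fell, and none of the 9 rose by edgeR, DESeq2 or limma-voom (1, Metrnl, at an unadjusted p under 0.05 by edgeR). These 3 of 9 stand against 1.1% of all 19272 tested features that were lower and 0.488% that were higher at an adjusted p under 0.05. The median log2 fold change of the 9 was -0.75, against 0.000676 over all tested features. The groups did not overlap in 7 of the 9: ANKO was below control in 6 (as in 10.2% of tested features) and above in 1, Metrnl (9.19%). Together the 9 genes made up 0.831% to 1.06% of all counts in controls and 0.252% to 0.323% in ANKO.

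**Figure D1:**
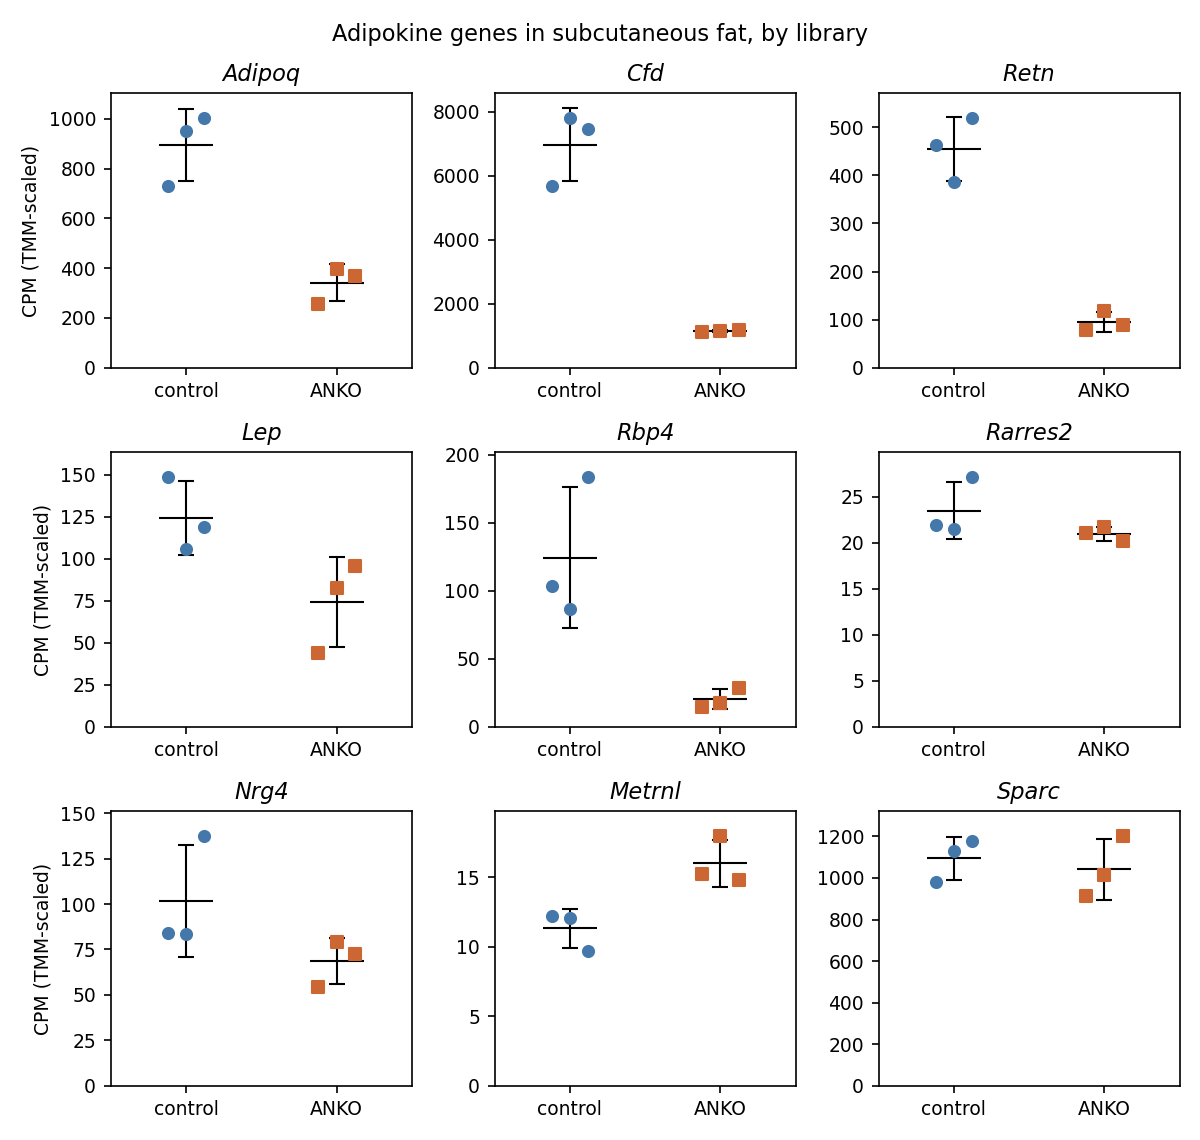
Expression of the 9 adipokine genes in CPM (vertical axes, each from 0) in 3 control and 3 ANKO libraries. Points are libraries, the long bar is the group mean and the whiskers are 1 SD. For Cfd, Retn, Adipoq, Rbp4, Lep and Nrg4 the ANKO points lie below all control points, for Metrnl above them, and for Rarres2 and Sparc the groups overlap.

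Cfd encodes adipsin, a serine protease that cleaves complement factor B (chr10:79890853-79892655, plus strand, GRCm38, 5 merged exons). It stood at 5679, 7787 and 7442 CPM in the controls and at 1129, 1137 and 1176 CPM in the ANKO mice. The ANKO values lay close together, with a coefficient of variation of 2.22% against 16.2% in controls, where counting error alone gives 0.618% and 0.265%. ANKO expression was 0.165 of the control level (95% interval 0.129 to 0.211, log2 fold change -2.60, SE 0.154, adjusted p = 0.000869). Cfd alone supplied 69.1% to 73.7% of the counts of the 9 genes in controls and 38.4% to 44.7% in ANKO.

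Retn encodes resistin, a small cysteine-rich hormone that in mice is made mainly by adipocytes and opposes insulin action (chr8:3655770-3660110, plus strand). Its values were 463, 386 and 518 CPM in controls and 78.9, 117.7 and 87.9 CPM in ANKO. The highest ANKO library, ANKO 2, was still far below the lowest control. The ANKO level was 0.208 of the control level (95% interval 0.156 to 0.277, log2 fold change -2.27, SE 0.178, adjusted p = 0.00252).

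Adipoq encodes adiponectin, a collagen-like hormone with a C1q-type head that circulates as trimers and larger multimers (chr16:23146536-23158028, plus strand). It was counted at 730, 951 and 1002 CPM in controls and at 258, 398 and 370 CPM in ANKO. The groups were separate, with ANKO 1 the lowest library and control 1 the lowest control. ANKO expression was 0.382 of control (95% interval 0.281 to 0.52, log2 fold change -1.39, SE 0.192, adjusted p = 0.0154). Cfd and Retn passed the test whichever library was left out, while Adipoq did not pass without control 2 (adjusted p = 0.0689), control 3 (0.0528) or ANKO 3 (0.0728).

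Rbp4 encodes retinol-binding protein 4, a lipocalin that carries retinol in plasma and is released by liver and fat (chr19:38116629-38125281, minus strand). Its values were 103.5, 86.4 and 183 CPM in controls and 14.5, 17.4 and 28.4 CPM in ANKO. All ANKO libraries lay far below the lowest control, yet the spread was wide, with coefficients of variation of 41.6% in controls and 36.7% in ANKO. The log2 fold change was -2.63 (SE 0.408), an ANKO level of 0.161 of control with a 95% interval of 0.0794 to 0.328, and the adjusted p of 0.0544 missed the threshold. DESeq2 (adjusted p = 4.575e-14) and limma-voom (adjusted p = 0.0222) called it, and over all alternatives the adjusted p ranged from 4.575e-14 to 0.216.

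Lep encodes leptin (chr6:29060220-29073877, plus strand). It stood at 148, 105.6 and 119 CPM in controls and at 44.0, 82.5 and 95.8 CPM in ANKO. The groups did not overlap, but ANKO 3 came close to control 2, and ANKO 1 lay well below the other ANKO mice. The ANKO level was 0.596 of control (95% interval 0.355 to 0.998), with an unadjusted p of 0.0493 and an adjusted p of 0.385 by edgeR, so no difference was established over all features. Without ANKO 1 the log2 fold change moved from -0.75 to -0.46.

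Nrg4 encodes neuregulin 4, a ligand of the receptors ERBB3 and ERBB4 that acts on the liver (chr9:55220222-55326844, minus strand). Its values were 84.0, 83.6 and 137 CPM in controls and 54.2, 79.0 and 72.6 CPM in ANKO. Control 3 stood above the other controls, and ANKO 2 lay just under the lowest control. The ANKO level was 0.675 of control (95% interval 0.456 to 0.9995, adjusted p = 0.386). Without control 3 the log2 fold change moved from -0.57 to -0.28. Of its exon bases, 6.06% overlap Fbxo22 and 2.91% overlap Gm15625 on the opposite strand, and the strand setting of the counting is not given in the sources used here.

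Metrnl encodes meteorin-like, a secreted protein linked to thermogenesis and to eosinophil signals in fat (chr11:121701544-121716306, plus strand). It was measured at 12.2, 12.05 and 9.69 CPM in controls and at 15.2, 17.9 and 14.8 CPM in ANKO, the reverse order of the genes above. The ANKO level was 1.41 of control (95% interval 1.12 to 1.78, unadjusted p = 0.00931, adjusted p = 0.180) and did not pass. Macrophages and other stromal cells also express Metrnl. Of 15 macrophage markers, 3 rose, and each of the 15 was detected in every library. In 11 of them ANKO lay above control, as in 9.19% of tested features, and the median log2 fold change was 0.44. Their summed level was 1401 to 1524 CPM in controls and 1609 to 1993 CPM in ANKO. That sum includes Ptprc, with means of 559 CPM in controls and 494 CPM in ANKO. The part of these cells in the Metrnl values was not tested.

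Rarres2 encodes chemerin, a chemoattractant precursor (chr6:48569696-48572789, minus strand). It stood at 21.9, 21.5 and 27.1 CPM in controls and at 21.1, 21.7 and 20.2 CPM in ANKO, with overlapping groups. The ANKO level was 0.894 of control (95% interval 0.737 to 1.08, adjusted p = 0.662). Of its exon bases 33.6% overlap Lrrc61 on the opposite strand, so part of these reads may belong to that gene.

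Sparc encodes osteonectin, a collagen-binding matrix protein that adipocytes, fibroblasts and endothelial cells all release (chr11:55394500-55423183, minus strand). Its values were 978, 1128 and 1176 CPM in controls and 911, 1014 and 1200 CPM in ANKO, and the groups overlapped almost completely. The ANKO level was 0.952 of control (95% interval 0.767 to 1.18, adjusted p = 0.894). Of 14 fibroblast and preadipocyte markers none passed the test, and their summed level was 8543 to 11076 CPM in controls and 9018 to 14951 CPM in ANKO. However, 12 of the 14 markers had a positive log2 fold change (median 0.28). At an unadjusted p under 0.05 by edgeR, 5 of these markers were higher and 0 were lower, with no share over all features computed. Their part in the Sparc values was not tested.

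**Figure D2:**
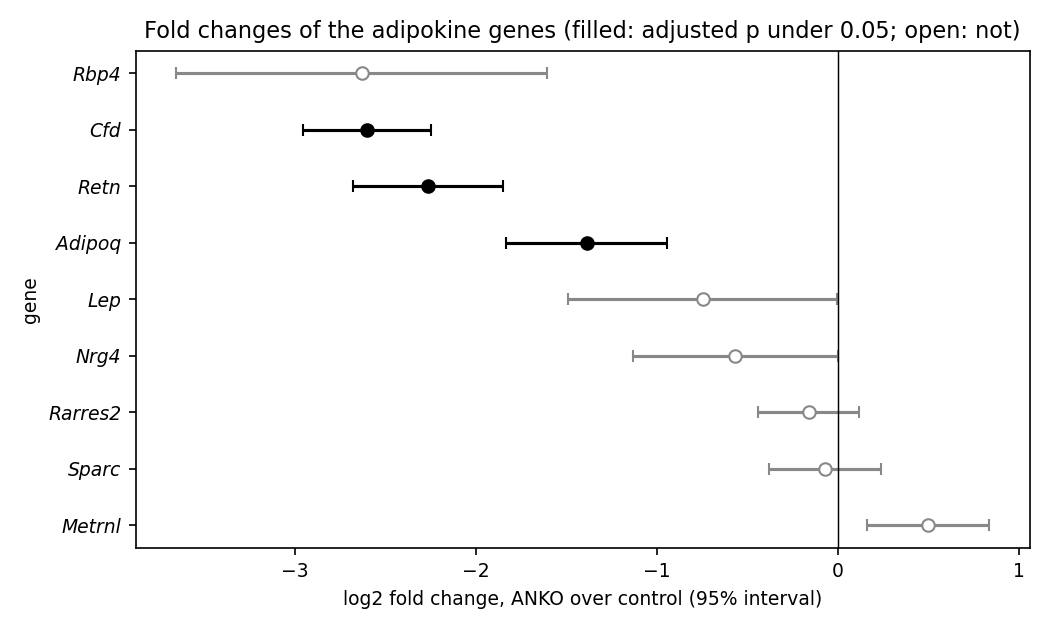
Log2 fold change of each adipokine gene, ANKO over control (horizontal axis), with its 95% interval, in order of size. Filled points passed an adjusted p of 0.05 over all features and open points did not. Rbp4, at -2.63, has the widest interval and is open, while Cfd (-2.60), Retn (-2.27) and Adipoq (-1.39) are filled.

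Because library scaling cancels in a ratio of 2 genes within a library, the falls were also compared with each other over all 36 pairs of the 9 genes. These ratios are given as descriptions with no test, and the pairs named here were chosen after their values were seen. The log2 ratio of Cfd to Retn was 3.62, 4.33 and 3.84 in controls and 3.84, 3.27 and 3.74 in ANKO, and that of Cfd to Rbp4 was 5.78, 6.49 and 5.34 in controls and 6.29, 6.03 and 5.37 in ANKO. Both sets overlapped between the groups. The log2 ratio of Adipoq to Cfd was -2.96, -3.03 and -2.89 in controls and -2.13, -1.51 and -1.67 in ANKO. Adipsin transcripts were thus lower relative to adiponectin transcripts in every ANKO library than in every control, while no such separation was seen for adipsin against resistin or retinol-binding protein.

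Levels of different genes were compared after division by exon length (CPM per kilobase of merged exons). In controls the order of the means was Cfd (7559), Adipoq (648), Sparc (289), Retn (289), Rbp4 (92.7), Lep (37.1), Nrg4 (16.7), Rarres2 (8.85) and Metrnl (7.14). Of these neighbours only Sparc (258 to 310) and Retn (244 to 328) overlapped between control libraries. In ANKO the order was Cfd (1245), Sparc (275), Adipoq (248), Retn (60.1), Lep (22.1), Rbp4 (14.97), Nrg4 (11.3), Metrnl (10.1) and Rarres2 (7.91). There Sparc overlapped Adipoq, Lep overlapped Rbp4, Rbp4 overlapped Nrg4 and Nrg4 overlapped Metrnl. Adipsin remained the most abundant of the 9, moving from rank 7 to rank 22 among 19156 features with a length. Resistin moved from rank 84 to 460 and retinol-binding protein from 294 to 2993, while Sparc ranked 83 and then 80. The merged exons of Nrg4 come from 13 transcripts and total 6075 bases, so its level per kilobase may be understated. Those of Rarres2 come from 5 transcripts and total 2656 bases. Its order against Metrnl may therefore depend on the length used.

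Each adipokine gene was also set against other adipocyte genes in the same library. Of the 23 adipocyte genes that are not secreted, 6 fell, none rose and 17 did not pass. Beside this count and those of the lists below stand 1.1% of all tested features called lower and 0.488% called higher. The groups were separate in 11 of the 23, with ANKO below control, as in 10.2% of tested features. Of the 23, 21 had a negative log2 fold change, and the median was -0.66. The calls with the smallest p were Slc7a10, a neutral amino acid transporter (log2 fold change -2.34 with SE 0.244, adjusted p = 0.0107), and Ffar4, the long-chain fatty acid receptor GPR120 (-1.54 with SE 0.168, adjusted p = 0.00734). Of these calls, 1 was left when control 2 or ANKO 3 was dropped and 3 with a muscle covariate. Slc7a10 was not called without control 2, ANKO 2 or ANKO 3, and Ffar4 was called without any 1 library.

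The mean log2 CPM of these 23 genes was 8.84 in controls and 8.07 in ANKO, so a feature with equal CPM in both groups has a ratio 0.77 higher in ANKO. Relative to this mean, the log2 ratio of Cfd was 3.86, 4.14 and 3.73 in controls and 2.42, 1.75 and 2.11 in ANKO, a difference of -1.82. Retn differed by -1.51, Rbp4 by -1.85 and Adipoq by -0.63, and in all 4 the ANKO libraries lay below the controls. The same held for 0.8% of the 19120 features with counts in every library, whatever their cell type. Within the 23 genes the changes were unequal too. Their median log2 fold change was -0.66, and 2 had a positive one. Slc7a10 (-2.34), Lgals12 (-1.68) and Ffar4 (-1.54) fell most, beside -1.39 for Adipoq and -2.27 for Retn. A fall beyond the mean of the 23 was thus not particular to the adipokine genes. Lep differed by -0.04 with overlapping groups, and its sign turned without control 1 (0.21), ANKO 1 (0.12) or ANKO 2 (0.00923). Nrg4 differed by 0.22 with overlap. Sparc (0.69), Rarres2 (0.61) and Metrnl (1.27) lay above the controls in every ANKO library on this scale, as did 59.1% of features, so for these 3 genes the separation is near the background. The values of Sparc and Rarres2 lay a little under the 0.77 of a feature with equal CPM, and that of Metrnl lay above it. With 3 against 3 mice the exact two-sided permutation test cannot go below p = 0.1, which was the value of all 7 separated genes (adjusted over the 9 genes, p = 0.129), and Nrg4 and Lep had p = 0.2 and 0.8. Such a ratio shows unequal change within a library and does not show that either side of it was unchanged.

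**Figure D3:**
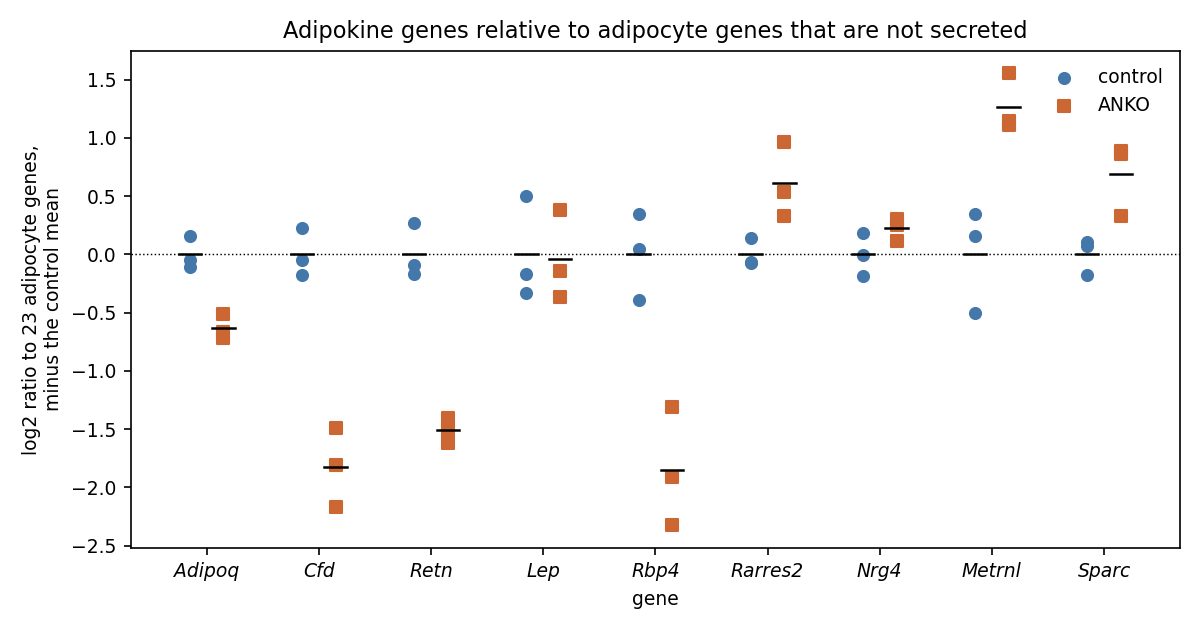
Log2 ratio of each adipokine gene to the mean of 23 adipocyte genes that are not secreted, shifted so that the control mean is 0 (vertical axis), by library. Bars are group means. The ANKO means of Cfd (-1.82), Rbp4 (-1.85) and Retn (-1.51) lie furthest down, that of Adipoq is -0.63, Lep and Nrg4 overlap the controls, and Rarres2, Sparc and Metrnl lie above them, where a feature with equal CPM in both groups would lie at 0.77.

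RefSeq start sites (GRCm38.p6) were found by symbol for 8 of the 9 genes, all but Rarres2, giving 9 windows of 250 bases before a start because Rbp4 has 2. The windows of the 3 genes that fell are shown 5′ to 3′ on the strand of the gene and end at the base before the start. Capitals mark any match, on either strand, to the searched motifs. They are Cfd at chr10:79890603-79890852, Retn at chr8:3655520-3655769 and Adipoq at chr16:23146286-23146535.
Cfd: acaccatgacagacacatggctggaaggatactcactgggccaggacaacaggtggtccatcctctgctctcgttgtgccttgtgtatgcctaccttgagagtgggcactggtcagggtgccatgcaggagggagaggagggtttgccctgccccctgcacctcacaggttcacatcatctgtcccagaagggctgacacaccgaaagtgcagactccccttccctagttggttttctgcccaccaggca
Retn: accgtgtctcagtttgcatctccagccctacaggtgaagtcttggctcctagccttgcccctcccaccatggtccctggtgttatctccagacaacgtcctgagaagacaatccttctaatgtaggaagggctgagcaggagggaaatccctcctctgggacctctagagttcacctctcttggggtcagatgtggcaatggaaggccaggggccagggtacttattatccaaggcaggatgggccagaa
Adipoq: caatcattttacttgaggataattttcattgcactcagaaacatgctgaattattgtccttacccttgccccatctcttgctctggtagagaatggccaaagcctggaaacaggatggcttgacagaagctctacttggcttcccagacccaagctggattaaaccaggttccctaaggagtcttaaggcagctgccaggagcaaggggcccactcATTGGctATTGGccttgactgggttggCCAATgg

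The motifs searched were the C/EBP palindrome TTGCGCAA, the PPARG and RXRA direct repeat (the half-site 2 times with 1 base between), the nuclear receptor half-site AGGTCA (which also lies within that repeat), the composite C/EBP and ATF element TGATGNAA, the FOXO motif GTAAACA, the E-box CACGTG, the CCAAT box and the TATA box TATAAA. The Cfd and Retn windows held no match to any of them, which says only that these letters are not in these windows. The Adipoq window held 3 CCAAT boxes within 34 bases of the start. At least 1 CCAAT box was present in 33.8% of all 32851 RefSeq windows of this length and at least 3 in 2.79%. The C/EBP palindrome, present in 0.164% of windows, occurred in the window of Lep, which did not pass the test, 55 bases before the start. It is shown in capitals in the surrounding 60 bases (chr6:29060141-29060200).
Lep: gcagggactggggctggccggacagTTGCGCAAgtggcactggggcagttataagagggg

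The window of Nrg4 held 2 nuclear receptor half-sites (at least 2 in 1.36% of windows), and the windows of Rbp4 held 1 C/EBP and ATF element (3.45%), 1 FOXO motif (3.17%), 1 CCAAT box and 1 TATA box (12.4%). The direct repeat (0.0335%) and the E-box (6.02%) occurred in none of the 9 windows. A match is a description of letters, and no binding was measured here.

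Of 12 transcription factors known to act on adipokine genes, 2 fell and 0 rose (median log2 fold change -0.20). At an unadjusted p under 0.05 by edgeR, 5 were lower and 0 higher. In 4 of the 12 ANKO lay below control, as in 10.2% of tested features. Klf15, a Krüppel-like factor of adipocyte and glucocorticoid responses, stood at 66.1, 87.3 and 106 CPM in controls and at 32.9, 27.5 and 29.5 CPM in ANKO (log2 fold change -1.53 with SE 0.169, adjusted p = 0.00837). Foxo1, a factor restrained by insulin signalling, fell as well (-0.52, adjusted p = 0.0152). Pparg (102, 105 and 147 CPM in controls; 59.7, 103 and 86.5 CPM in ANKO; adjusted p = 0.430) and Cebpa (609, 749 and 913 CPM in controls; 384, 622 and 473 CPM in ANKO; adjusted p = 0.251), named after their values were seen, did not pass, and both overlapped between groups. Their log2 fold changes were -0.51 (95% interval -1.06 to 0.04) for Pparg and -0.62 (-1.10 to -0.13) for Cebpa. Klf15 was not called without ANKO 3 (adjusted p = 0.0620), and Foxo1 was not called without control 2, ANKO 1, ANKO 2 or ANKO 3 or with a muscle covariate.

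Among 15 tested receptors for adipokines, 2 fell and 0 rose (median log2 fold change 0.09). Cmklr1, a chemerin receptor, fell from 137, 159 and 120 CPM in controls to 52.3, 57.1 and 54.9 CPM in ANKO (log2 fold change -1.34 with SE 0.113, adjusted p = 0.00311). It passed whichever library was left out. Cmklr1 was therefore lower where the level of chemerin transcripts (Rarres2) overlapped between groups. The other chemerin-binding receptors on this list, Ccrl2 and Gpr1, named after their values were seen, did not pass. Ccrl2 lay above the controls in every ANKO library (log2 fold change 0.72, adjusted p = 0.229). Gpr1 overlapped between groups (log2 fold change -0.26, adjusted p = 0.856). Adipor2, an adiponectin receptor, fell from 445, 556 and 635 CPM to 256, 341 and 255 CPM (log2 fold change -0.94 with SE 0.167, adjusted p = 0.0393). The call was lost when control 2, control 3, ANKO 1 or ANKO 3 was dropped (adjusted p up to 0.164), and also by limma-voom, without robust weighting and with a muscle covariate. The other adiponectin receptor gene, Adipor1, stood at 130, 129 and 133 CPM in controls and at 145, 148 and 123 CPM in ANKO (adjusted p = 0.778), named after its value was seen. The neuregulin receptors Erbb2, Erbb3 and Erbb4 and the receptor Kit were lowest in control 3 among the controls (23.7, 33.4, 3.25 and 42.8 CPM). That library also held the least mammary epithelial RNA. The log2 fold change was 0.28 for Erbb2, 0.39 for Erbb3 and 0.45 for Kit, and -0.34 for Erbb4. Kit is a mast cell marker too, and the other 4 tested mast cell markers all rose. Without Kit, 6 mast cell markers summed to 24.1 to 32.7 CPM in controls and 67.5 to 73.7 CPM in ANKO. None of Erbb2, Erbb3, Erbb4 and Kit passed, and the part of epithelium and mast cells was not tested.

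Of 13 tested genes for folding and secretion of adiponectin and other collagen-like proteins, 1 rose and none fell, with a median of 0.04. Ero1l, an oxidase of the endoplasmic reticulum that helps form the disulfide bonds of adiponectin, stood at 22.9, 23.9 and 19.1 CPM in controls and at 30.6, 41.6 and 43.1 CPM in ANKO (log2 fold change 0.80 with SE 0.154, adjusted p = 0.0499). This call lay at the threshold, held when ANKO 1 was dropped and was lost when any other library was (adjusted p up to 0.176). It was also lost by limma-voom, without robust weighting, with the filter of 1 CPM and with a muscle covariate. In the C1q/TNF-related family, whose heads resemble that of adiponectin, 1 of 9 tested genes fell and none rose, with a median of 0.15. C1qtnf12 fell from 28.5, 32.1 and 34.6 CPM to 16.6, 20.2 and 18.9 CPM (log2 fold change -0.77 with SE 0.120, adjusted p = 0.0241). The call held when control 1 was dropped and was lost when any other library was, or with a muscle covariate.

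Adipsin acts on factor B bound to C3, and 1 of 12 tested complement partners fell and none rose, with a median of 0.19. C3, the central complement protein, fell from 1929, 2614 and 2303 CPM in controls to 1377, 1185 and 1251 CPM in ANKO (log2 fold change -0.84 with SE 0.140, adjusted p = 0.0300), a smaller fall than that of Cfd. The call held when control 1 was dropped and was lost when any other library was, or with a muscle covariate. Cfb, the substrate of adipsin, was named after its value was seen and was scarce, at 1.93, 1.26 and 1.75 CPM in controls and 1.68, 0.693 and 1.81 CPM in ANKO (adjusted p = 0.878). C3ar1, the receptor for the C3a fragment, belongs to this list and to the receptors. It stood at 8.41, 11.5 and 9.58 CPM in controls and 14.0, 20.2 and 25.1 CPM in ANKO (adjusted p = 0.0871), beside the higher macrophage markers given above, whose part was not tested.

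None of 17 tested genes of retinol handling passed by edgeR (2 lower and 1 higher at an unadjusted p under 0.05), against 1 by DESeq2 and 0 by limma-voom, and their median was -0.000628. The one with the smallest p was Aldh1a1, a retinaldehyde dehydrogenase (26.7, 32.0 and 38.2 CPM in controls; 22.1, 22.3 and 22.4 CPM in ANKO; log2 fold change -0.54 with SE 0.136, unadjusted p = 0.00422, adjusted p = 0.121). Among 12 tested relatives of the 9 genes by family, none passed by edgeR (1 lower and 1 higher at an unadjusted p under 0.05), against 2 by DESeq2 and 0 by limma-voom, with a median of 0.08. The smallest p was that of Smoc1, a secreted relative of Sparc (155, 176 and 217 CPM in controls; 71.3, 116 and 76.9 CPM in ANKO; log2 fold change -1.05 with SE 0.214, adjusted p = 0.0771). Retnla, a relative of resistin made largely by macrophages, was named after its value was seen and stood at 116, 96.4 and 78.6 CPM in controls and 121, 91.3 and 81.4 CPM in ANKO (adjusted p = 0.985), where resistin itself fell.

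Of 30 other tested genes for proteins released by fat, 3 fell and 2 rose, with a median of -0.04. Ccdc80, a secreted protein of adipocyte differentiation, fell from 417, 479 and 482 CPM to 172, 186 and 224 CPM (log2 fold change -1.24 with SE 0.125, adjusted p = 0.00577). Igf1, the insulin-like growth factor, fell from 207, 170 and 163 CPM to 96.6, 86.5 and 101 CPM (log2 fold change -0.93 with SE 0.114, adjusted p = 0.0107). The other, Lgals12 (galectin-12, named after its value was seen), is largely intracellular and is also among the 23 adipocyte genes above. Gdf15, a stress hormone, rose from 0.175, 0.504 and 1.60 CPM to 17.2, 31.3 and 33.6 CPM (log2 fold change 5.20 with SE 0.692, adjusted p = 0.0331). Pltp, the phospholipid transfer protein, rose from 66.3, 80.1 and 67.8 CPM to 109, 110.5 and 121 CPM (log2 fold change 0.67 with SE 0.0975, adjusted p = 0.0179). Ccdc80 and Igf1 passed whichever library was left out. Gdf15 was not called without control 2, ANKO 2 or ANKO 3, without a low-count filter or with a muscle covariate, and the call of Pltp held only when control 2 or ANKO 1 was the library dropped.

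**Figure D4:**
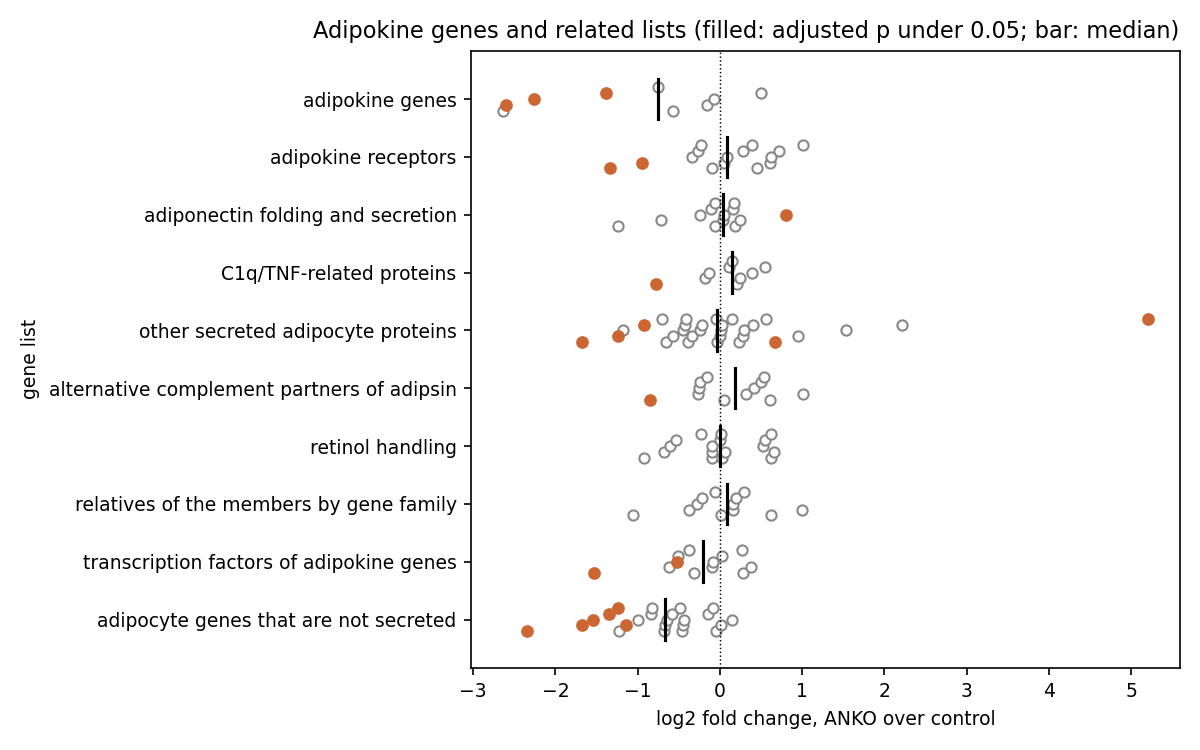
Log2 fold change, ANKO over control (horizontal axis), of every tested gene in the adipokine set and in 9 related gene lists (rows). Filled points passed an adjusted p of 0.05, open points did not, and the black bar is the median of the list. The medians lie at -0.75 for the adipokine genes, -0.66 for the adipocyte genes that are not secreted and between -0.20 and 0.19 for the other lists.

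Genes whose log2 CPM followed the adipokine genes most closely were ranked by Pearson r over the 6 libraries among 10160 named genes averaging 10 CPM or more. The 6 libraries share the difference between the groups, and with so few libraries some genes reach a high r in any case, so these values are descriptions. A high r also does not measure the size of a change. Among the genes below, Nnmt had a log2 fold change of -2.31 (adjusted p = 0.000869). Syf2 had one of only -0.25 (adjusted p = 0.207) and Ankhd1 one of -0.043 (adjusted p = 0.876). Cfd was followed by Nnmt, the nicotinamide N-methyltransferase (r = 0.9998), Serpina3c, a serine protease inhibitor (r = 0.9996), and Steap4, a metalloreductase of adipocytes (r = 0.9987). Adipoq was followed by Ffar2, the short-chain fatty acid receptor (r = 0.9993), Amy1 (r = 0.9963), an amylase with close copies in the genome, and C1qtnf12 (r = 0.9961). Retn was followed by Syf2 (r = 0.9960), Swi5 (r = 0.9951) and Bche, the butyrylcholinesterase (r = 0.9933). For Rbp4 the genes were Cpsf3, Ankhd1 and Ufl1, for Lep Prr5, Mon2 and L3mbtl3, and for Nrg4 Spcs1, Ppargc1a and Gpx8. For Metrnl they were Ccdc92, Rabep1 and App, for Rarres2 Clec1a, Psmc5 and Mospd3, and for Sparc Plgrkt and Manea. Among the 9 genes themselves, r was 0.974 for Cfd with Retn, 0.962 for Cfd with Adipoq and 0.956 for Retn with Rbp4, and it was -0.940 for Rbp4 with Metrnl. Sparc had its highest r with Nrg4 (0.611).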

How the data were processed

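RNA of 6 fat samples, 1 per mouse, was measured. Per the labels' protocols, RNA came from frozen tissue (Qiazol, RNeasy), and a Ribo-Zero Gold kit, which depletes ribosomal RNA, was used. Per the submitters' processing notes, STAR 2.0.4b, Subread and featureCounts 1.45 were used with GRCm38. Neither the annotation release nor the strand setting is stated in the labels. The authors deposited raw counts per gene symbol, so gene length, shared exons and depth all affect a count. Of 40757 lines, 329 exact repeats were dropped, leaving 40428 features. All pairs of libraries differed beyond sampling noise (chi-square per degree of freedom 30.6 to 87.8).

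The whole table was fitted with edgeR 4.0.16 (R 4.3.3): filterByExpr (minimum count 10, minimum total count 15), TMM, robust dispersions and the quasi-likelihood F test, with Benjamini-Hochberg adjustment over 19272 features and a threshold of 0.05. Standard errors are the log2 fold change over the square root of F, and 95% intervals use the moderated degrees of freedom. The median standard error was 0.186, so small changes were not detectable with 3 mice a group. Positions, exons and lengths came from GENCODE M21 (GRCm38). The code was tested on simulated data, where false calls were more frequent than the threshold allows and small fold changes were mostly missed, so calls near the threshold are the least certain. The alternatives tried were DESeq2 1.42.0, limma-voom 3.58.1, upper-quartile or RLE scaling, no robust weighting, 2 other filters, a replicate block, a muscle covariate and each library left out.

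The 9 genes, the lists, the motifs and the tests were chosen with earlier results of these data known. Named genes were the 9, Nampt, and from each related list the 2 called genes with the smallest p in each direction, or, in a list with no call, its gene of lowest p, plus the 3 genes most like each of the 9, of which 1 is not reported here. Genes in 2 lists were counted in both. Of the other lists written, those for lymphocyte, endothelial, mural, Schwann, brown adipocyte, erythroid and mesothelial markers were used only as checks of cell content.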

Additional observations from a re-analysis of the deposited data

How the results depend on the processing

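The 3 falls among the adipokine genes were 3 or 4 under the 9 other settings of the fit and 2 to 3 with a library left out, and 0 of the 9 genes rose under any of them. The fourth, where there was one, was Rbp4. Of the named genes, the direction turned once, for Sparc, whose log2 fold change ranged from -0.18 without ANKO 3 to 0.038 without ANKO 1. Numbers in the lists moved more. Receptors: 1 lower by limma-voom, without robust weighting, with the replicate block or with the muscle covariate (1 to 2 with a library left out), and 1 higher by DESeq2 or without a filter (0 to 1). Folding genes: 2 lower by DESeq2 (0 with a library left out), and 0 higher by limma-voom, without robust weighting, with the 1 CPM filter, the block or the covariate (0 to 1). C1q/TNF-related: 0 lower with the covariate (0 to 1). Other secreted proteins: 5 lower and 5 higher by DESeq2, 1 higher with the covariate (2 to 4 lower and 0 to 4 higher with a library left out). Complement: 0 lower with the block or the covariate (0 to 1), and 1 higher by DESeq2 or without a filter (0 to 1). Retinol handling: 1 lower by DESeq2. Relatives: 1 lower and 1 higher by DESeq2, 1 higher with the block (0 to 1 lower with a library left out). Transcription factors: 1 lower with the covariate (0 to 2). Adipocyte genes: 12 lower by DESeq2, 3 with the covariate (1 to 6). The causes were not tested. Relative to adipocyte genes, an alternative added after seeing the data, Lep ranged from -0.25 to 0.21 with a library left out, and no other adipokine gene changed sign. Of the correlations of the most similar genes, recomputed under other scalings or with a library left out (also added after seeing the data), 5 moved by 0.05 or more and 211 did not.

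No consistent pairing by replicate number was seen: deviations of same-numbered libraries correlated at 0.207, -0.107 and -0.0858. Not every library correlated best with its own number. These values cannot settle whether the numbers mark pairs of mice. With the replicate block 145 features were lower and 62 higher, against 212 and 94 without it, Rbp4 passed (adjusted p = 0.00478), and Adipor2, Ero1l and C3 did not. Over all features DESeq2 called 498 lower and 388 higher, the muscle covariate left 106 and 46, no filter gave 297 and 167, and leaving out a library gave 55 to 221 lower and 20 to 107 higher. Depth limits the genes below about 1 CPM, such as Fgf21 in controls.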

Other observations

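Of the 30 other tested genes for proteins released by fat, ANKO lay below control in 6 and above in 6, called genes included. This was so in 10.2% and 9.19% of all tested features. Several secreted proteins outside the naming rule had separated groups and no call in the filtered fit, and were chosen here after their values were seen. Lpl, Fst and Slit2 were also separated without a call and are not described. Fgf21, a hormone released under metabolic and mitochondrial stress, had 0, 0 and 1 reads in the controls and 11, 70 and 52 reads in the ANKO libraries, and it did not pass the low-count filter. In the edgeR fit with no filter it was higher in ANKO (log2 fold change 6.50, adjusted p = 0.00999), a size that depends on the prior count because the controls hold almost no reads. Angptl8, an insulin-responsive inhibitor of lipoprotein lipase, stood at 10.5, 6.40 and 10.5 CPM in controls and 14.5, 36.9 and 27.8 CPM in ANKO (adjusted p = 0.138). Ccn5, a secreted modulator of Wnt signalling in fat, stood at 8.71, 13.2 and 3.81 CPM in controls and 29.9, 59.9 and 29.7 CPM in ANKO (adjusted p = 0.162). Hp, which encodes haptoglobin, had 149, 287 and 165 CPM in controls and 82.2, 92.7 and 90.9 CPM in ANKO (adjusted p = 0.0968). Angptl4, a lipoprotein lipase inhibitor and PPAR target, had 158, 246 and 216 CPM in controls and 108, 138 and 134 CPM in ANKO (adjusted p = 0.117).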
